A study of Homo sapiens with 2 samples.

Results

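SR proteins and hnRNP proteins are the main families of RNA-binding splicing regulators of human cells, and their messenger RNAs were examined here in 2 RNA-seq libraries of the human cell line MDA-MB-231, a model of triple-negative breast cancer. The genes were taken by a rule on their names, written with earlier results of these data known. They were the protein-coding genes of the GENCODE release 29 annotation whose symbols start with SRSF, HNRNP (without HNRNPLL), TRA2 or PTBP, together with RBFOX2, ESRP1, ESRP2, MBNL1, MBNL2, QKI and CELF1. The rule gave 50 genes of 49627 listed in the files, namely 12 SRSF genes, 26 HNRNP genes, 2 TRA2 genes, 3 PTBP genes and the 7 genes given by symbol. It also took in HNRNPUL2-BSCL2, a read-through of a pair of neighbouring genes, and HNRNPA1P48, a gene copy with a pseudogene symbol.

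Of the 2 libraries, 1 came from a line in which RBMS1, itself an RNA-binding protein, was stably knocked down, and 1 from control cells of the same line. Both were grown in L15 medium with fetal bovine serum without carbon dioxide, and the study's methods describe lentiviral pLKO.1 shRNA with drug selection for the knockdown and the empty pLKO.1 vector as negative control. A stable shRNA line is a selected population, and no source used here says whether a second hairpin or culture was sequenced. Each group was a single library, so no p-value was computed and each difference is one between these libraries.

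SR proteins carry RNA recognition motifs and a domain rich in arginine and serine, and they bind exonic enhancers and help the spliceosome to define exons. Many hnRNP proteins, including the PTB proteins, act against exon use when bound near it, and RBFOX, MBNL, CELF, QKI and ESRP proteins promote or repress an exon depending on the side on which they bind. Many of these genes hold a "poison" exon, whose inclusion brings a premature stop codon and sends the transcript to nonsense-mediated decay (NMD), and several regulators control their own level or that of a close relative in this way.

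The exons on which the results turn are shown first, each 5′ to 3′ on the strand of its gene, from the GENCODE release 29 transcript sequences with GRCh38 positions. The first pair are the 34-nt exons of PTBP2 (chr1:96806419-96806452) and PTBP1 (chr19:807869-807902), which occupy the same place in both genes. The second pair are the exons near the 3′ end of the coding sequence of HNRNPD (chr4:82356537-82356683, minus strand, 147 nt) and HNRNPAB (chr5:178210132-178210272, 141 nt). Capitals mark bases that are identical in the alignment of each pair, 25 of 34 aligned positions in the first and 93 of 132 in the second.
PTBP2 34-nt exon: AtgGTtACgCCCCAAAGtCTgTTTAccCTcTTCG
PTBP1 34-nt exon: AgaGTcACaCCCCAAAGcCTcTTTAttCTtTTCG
HNRNPD 147-nt exon: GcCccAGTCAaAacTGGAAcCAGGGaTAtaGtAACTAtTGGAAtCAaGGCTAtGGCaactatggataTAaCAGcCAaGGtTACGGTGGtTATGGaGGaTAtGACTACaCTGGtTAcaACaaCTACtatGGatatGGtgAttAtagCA
HNRNPAB 141-nt exon: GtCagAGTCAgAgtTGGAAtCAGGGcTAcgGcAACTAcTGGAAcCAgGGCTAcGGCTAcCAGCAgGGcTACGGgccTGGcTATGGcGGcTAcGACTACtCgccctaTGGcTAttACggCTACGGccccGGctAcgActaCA

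MBNL1 and MBNL2 share a 54-nt and a 36-nt exon, and they are shown because the relatives used them differently. Their positions are chr3:152446704-152446757 and chr13:97356796-97356849 for the 54-nt exons and chr3:152455542-152455577 and chr13:97365136-97365171 for the 36-nt exons. Capitals mark the identical bases, 45 of 54 and 31 of 36. The 40-nt exon of RBFOX2 (chr22:35756105-35756144, minus strand) follows in lower case, because its length is no multiple of 3 and its use shifts the reading frame of what comes after it.
MBNL1 54-nt exon: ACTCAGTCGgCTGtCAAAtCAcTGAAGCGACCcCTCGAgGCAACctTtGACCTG
MBNL2 54-nt exon: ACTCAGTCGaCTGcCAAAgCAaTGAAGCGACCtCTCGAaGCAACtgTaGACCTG
MBNL1 36-nt exon: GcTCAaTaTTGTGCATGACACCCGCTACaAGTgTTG
MBNL2 36-nt exon: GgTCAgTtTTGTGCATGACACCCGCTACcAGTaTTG
RBFOX2 40-nt exon: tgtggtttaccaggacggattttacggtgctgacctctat

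The poison exons of SRSF6 and SRSF7 were listed above 0 in at least 1 library, and the parts of them from the first base to the stop codon (in capitals) are given here. The SRSF6 stretch is chr20:43459153-43459304. SRSF7, on the minus strand, has alternative 5′ borders of its poison exon, which lead to the stretches chr2:38749319-38749346 and chr2:38749152-38749173.
SRSF6 poison exon to its stop: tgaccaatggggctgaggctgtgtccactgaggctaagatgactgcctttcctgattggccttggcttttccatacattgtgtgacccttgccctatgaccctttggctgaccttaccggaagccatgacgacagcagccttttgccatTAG
SRSF7 449-nt poison exon to its stop: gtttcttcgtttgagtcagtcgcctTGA
SRSF7 276-nt poison exon to its stop: ggcagaaaatttgagacggTGA

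Levels are given in FPKM, the fragments that fall on each kilobase of a transcript after scaling to library size, summed over the annotated transcripts of a gene and the assembled transcripts that share an intron with them. The values in brackets are the summed Cufflinks confidence bounds, which cover error within a library and not the variation between cultures, and the number of reads is unknown. The targeted gene came first as a check of the labels. RBMS1 was at 3.76 FPKM (3.12 to 5.39) in knockdown cells and at 24.1 FPKM (21.7 to 27.7) in control cells, 15.6% of the control level. The genes expressed in this mesenchymal-like line (VIM, CD44, EGFR, CAV1, KRT18) lay between 26.1 and 563 FPKM in both libraries, the oestrogen and progesterone receptor genes and CDH1 at or below 0.0996 FPKM, and the markers of blood, endothelial and liver cells at or below 0.132 FPKM. ERBB2 lay at or below 7.50 FPKM and EPCAM at or below 3.66 FPKM in both libraries.

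Of the 50 genes, 42 had a mean of at least 1 FPKM over both libraries and are described below. Those under this limit were ESRP1 and ESRP2, the epithelial splicing regulators, SRSF12, HNRNPA1P48 and the 4 HNRNPCL genes. ESRP1 was listed at 0 after RBMS1 knockdown and at 0.0264 FPKM in control cells, and ESRP2 was listed at 0 in both. Just outside the limit lay HNRNPA1P48, with 0.746 and 0.855 FPKM in the knockdown and control libraries, and just inside lay HNRNPA1L2 with 0.953 and 1.05. Both are copies of HNRNPA1, so the reads assigned to them are uncertain.

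**Figure D1:**
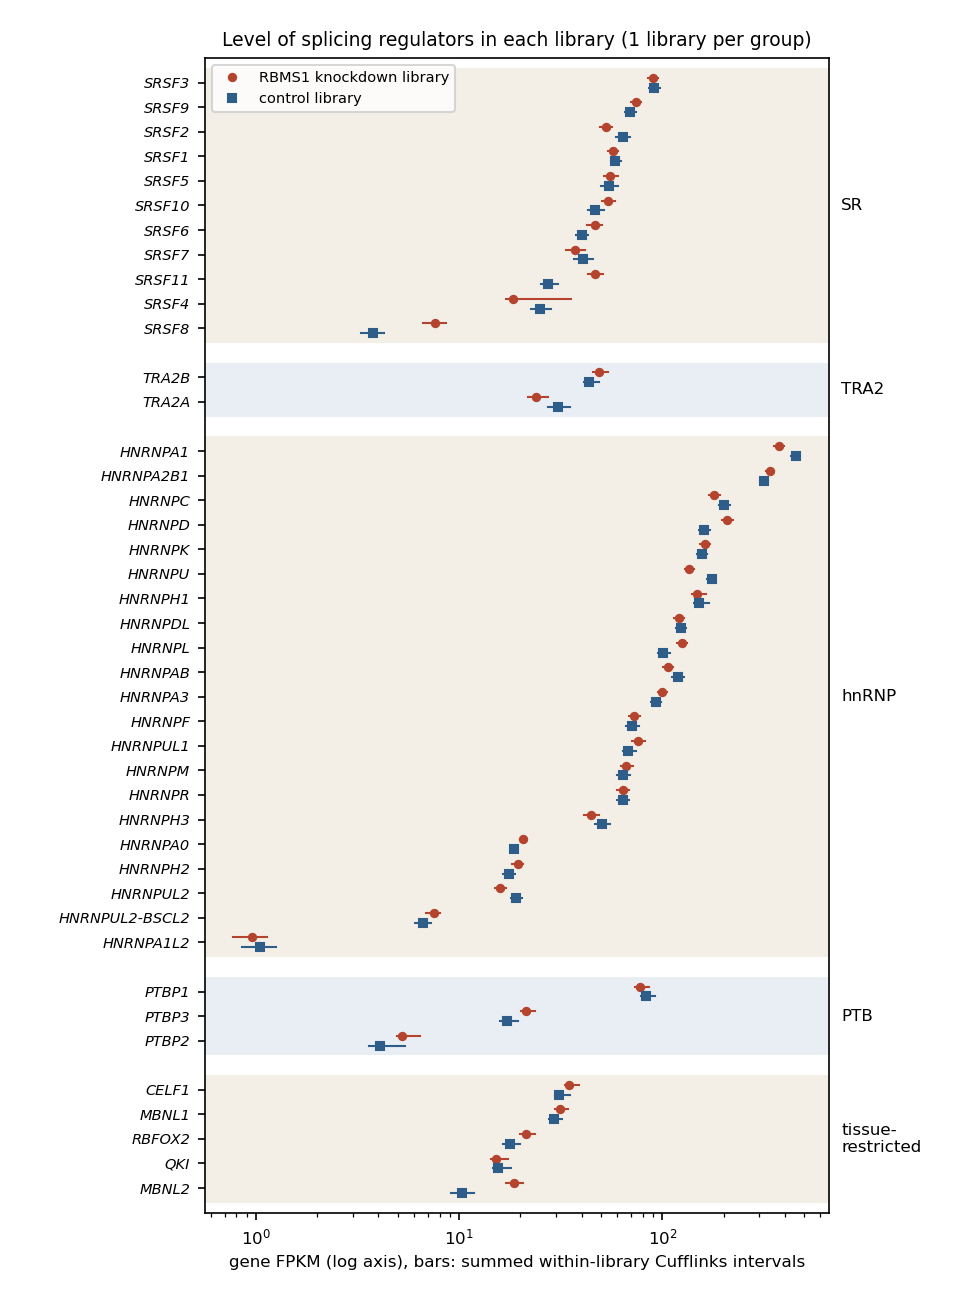
Gene FPKM (log axis) of the 42 genes with a mean of at least 1 FPKM in the RBMS1 knockdown library (circles) and the control library (squares), by family and in order of mean level. Bars are the summed within-library Cufflinks intervals, and the levels run from about 1 FPKM for HNRNPA1L2 to 452 FPKM for HNRNPA1 in the control library.

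Most of the splicing regulators stood at similar levels in both libraries, and none reached a 2-fold difference once 1 FPKM was added to each level. The ratio was taken as log2 of knockdown FPKM plus 1 over control FPKM plus 1. Of 42 genes, 0 were at least 2-fold lower and 0 at least 2-fold higher in the knockdown library, where 2.8% and 2.96% of the 11186 genes with a mean of at least 1 FPKM were called in these directions. As plain FPKM ratios, with nothing added, 0 were at least 2-fold lower and 1 (SRSF8, at 2.02) at least 2-fold higher, beside 4.01% and 4.37% of all genes. The median log2 ratio of the 42 genes was 0.05, beside 0.02 over all 11186 genes, and 18 genes were lower and 24 higher. A difference of less than 0.2 on the log2 scale was seen in 27 of the 42 (64.3%) and in 51.2% of all genes. Among genes with a mean of at least 10 FPKM these shares were 65.8% of 38 and 56.7% of 4875. The intervals of the libraries did not overlap for 12 of the 42 genes (28.6%), beside 24.7% of all genes, and thus at a share near the background. Of these 12, 4 were lower in the knockdown library, where 11.5% of all genes were, and 8 were higher, where 13.3% of all genes were. Taking reference transcripts alone turned the sign of the ratio in 7 of the 42 genes (SRSF4, SRSF6, HNRNPH1, HNRNPH3, HNRNPK, HNRNPU and PTBP2). The same share over all genes is not given, so this count cannot be set against a background.

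**Figure D2:**
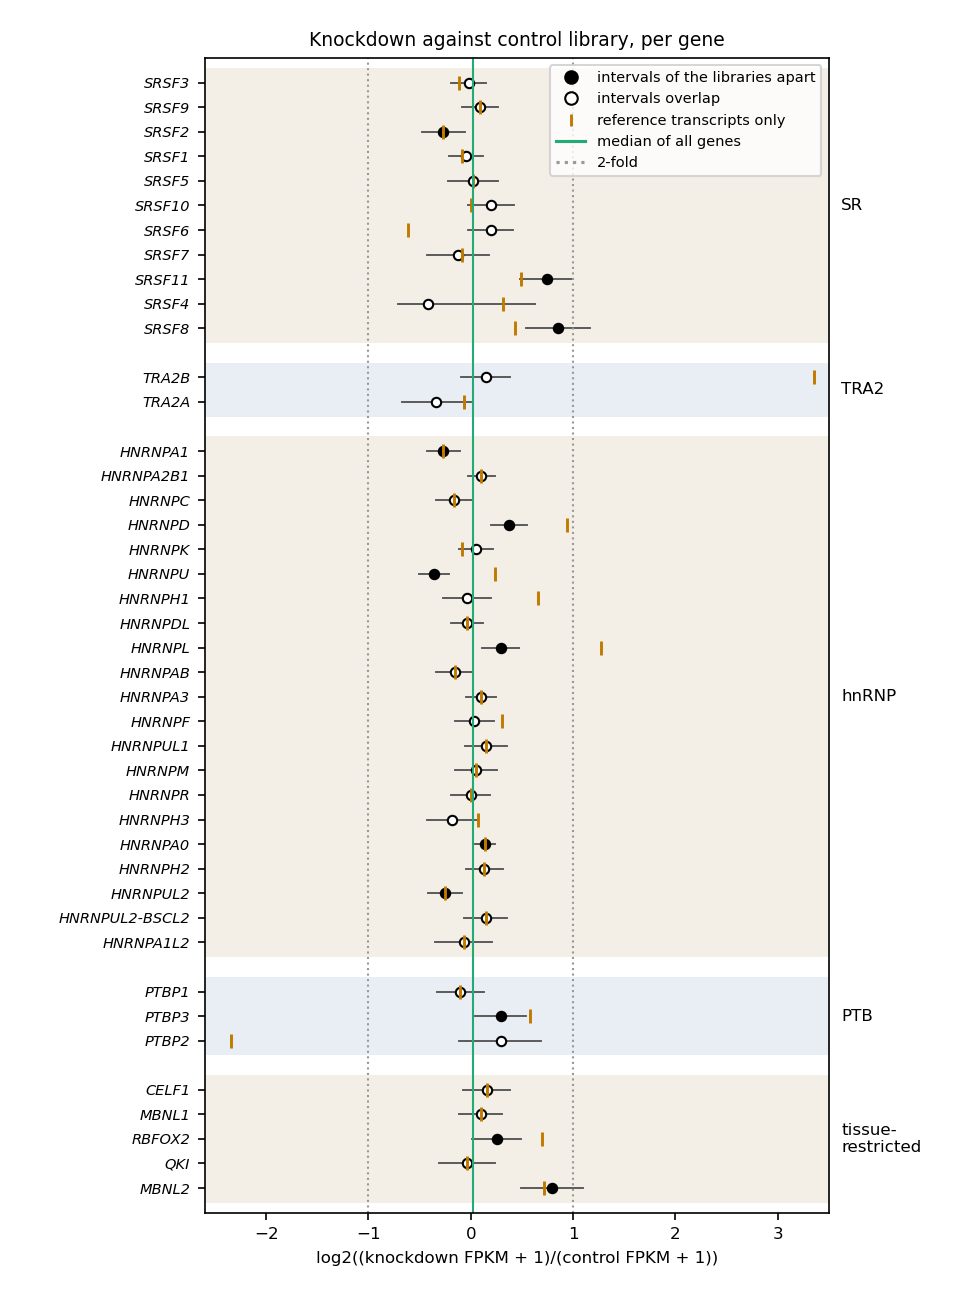
The log2 ratio of knockdown to control FPKM for each gene, with lines from the lowest to the highest ratio that the bounds of both libraries allow, filled circles where the intervals do not overlap, and bars for the ratio from reference transcripts alone. All 42 circles lie between the dotted 2-fold lines and most lie near the median of all genes (vertical line), whereas the bars of PTBP2, HNRNPL and TRA2B lie outside the dotted lines (the reference transcripts of PTBP2 and TRA2B are listed at 0 in 1 library).

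Among the 11 SR genes above the limit, 5 were lower and 6 higher, with a median log2 ratio of 0.02. SRSF3, which is also an export adaptor for messenger RNA, was the highest of them with 90.1 FPKM in knockdown cells and 91.4 FPKM in control cells. SRSF1, the prototype of the family, was at 56.9 and 58.6 FPKM, and SRSF9 was at 74.0 and 69.3 FPKM. The intervals of each of these genes overlapped. SRSF5, SRSF6, SRSF7 and SRSF10 had log2 ratios from -0.13 to 0.20, also with overlapping intervals, and that of SRSF6 was -0.62 with reference transcripts alone.

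The genes at the low end of the SR family were SRSF4 and SRSF2. SRSF4 was at 18.5 FPKM (16.9 to 35.5) after RBMS1 knockdown and at 25.0 FPKM (22.6 to 28.3) in control cells, a log2 ratio of -0.42 with overlapping intervals that turned to 0.31 with reference transcripts alone. SRSF2, an SR protein that is mutated in myeloid cancers, was at 52.6 FPKM (49.4 to 56.5) and 63.7 FPKM (58.9 to 69.1), a log2 ratio of -0.27 with intervals apart. The SRSF2 difference lay in one transcript: without SRSF2-206, annotated as a retained-intron form and listed at 0 in knockdown cells and at 18.7 FPKM in control cells, the other forms were higher in the knockdown library. SRSF2-202 stood at 38.1 against 32.9 FPKM and SRSF2-203 at 14.6 against 12.0 FPKM.

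The genes at the high end were SRSF8 and SRSF11, and the value of each depended on how assembled transcripts were counted. SRSF8, a retrogene copy of SRSF2, was at 7.58 FPKM (6.61 to 8.56) after RBMS1 knockdown and at 3.76 FPKM (3.27 to 4.24) in control cells, a log2 ratio of 0.85 with intervals apart. Its annotated transcript SRSF8-201 alone gave 4.81 and 3.30 FPKM and a log2 ratio of 0.44. Reads that SRSF8 shares with SRSF2 make its level uncertain. SRSF11, an SR-related protein of the spliceosome, was at 46.4 FPKM (43.0 to 51.2) and 27.3 FPKM (25.3 to 30.5), a log2 ratio of 0.75 with intervals apart. In the knockdown library 1 of its assembled transcripts held 2 exons in 6678 nt and added 8.72 FPKM for a piece of the gene. Counted at the intron with the highest sum of FPKM, SRSF11 stood at 37.7 and 27.3 FPKM, a log2 ratio of 0.45, whereas that of SRSF8 was 1.37 counted in this way. With the dominant transcript alone the log2 ratio of SRSF11 turned to -0.14.

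TRA2A and TRA2B, the human relatives of the fly sex-determination factor Transformer 2, went in opposite directions within overlapping intervals. TRA2A was at 23.9 FPKM (21.7 to 27.4) in knockdown cells and 30.5 FPKM (27.3 to 35.1) in control cells. TRA2B was at 48.6 FPKM (45.4 to 53.9) and 43.7 FPKM (41.0 to 48.6). All TRA2B signal of the control library sat on assembled transcripts, the main one with the introns of TRA2B-205 at 34.6 FPKM, and the same form was at 31.7 FPKM in the knockdown library.

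The hnRNP genes held the highest levels. Their 21 members above the limit had a median log2 ratio of 0.03, 10 lower and 11 higher, and 16 lay within 0.2 of 0. HNRNPA1, a shuttling protein that represses exons, was at 375 FPKM (355 to 398) after RBMS1 knockdown and at 452 FPKM (428 to 478) in control cells, a log2 ratio of -0.27 with intervals apart. Its close relative HNRNPA2B1 was at 339 FPKM (324 to 355) and 316 FPKM (302 to 330), with overlapping intervals. HNRNPC, which binds uridine tracts and keeps Alu elements from being used as exons, was at 180 and 202 FPKM, and HNRNPK, a protein with KH domains that binds cytidine tracts, at 162 and 157 FPKM. Each of this pair had overlapping intervals.

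HNRNPD, also known as AUF1, binds AU-rich elements of unstable messenger RNAs, and it had the highest log2 ratio of the hnRNP genes. It was at 209 FPKM (197 to 222) in knockdown cells and at 161 FPKM (151 to 172) in control cells, a log2 ratio of 0.37 with intervals apart that became 0.94 with reference transcripts alone. HNRNPL, which binds CA repeats, followed with 125 FPKM (118 to 132) against 101 FPKM (94.9 to 109), a log2 ratio of 0.30 with intervals apart that became 1.27, past 2-fold, with reference transcripts alone. The intervals were apart for HNRNPA0 as well, with 20.6 and 18.6 FPKM.

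The lowest log2 ratio of the hnRNP genes was that of HNRNPU, the scaffold attachment factor of chromatin, with 136 FPKM (130 to 143) after RBMS1 knockdown and 175 FPKM (166 to 185) in control cells. Its log2 ratio of -0.36 turned to 0.24 with reference transcripts alone, since an assembled piece of 8 exons held 59.9 FPKM in the control library only. HNRNPUL2 had 15.8 FPKM after knockdown and 19.0 FPKM in control cells (log2 ratio -0.25, intervals apart), while the read-through HNRNPUL2-BSCL2, which overlaps it and shares its reads, was at 7.48 and 6.67 FPKM. The other hnRNP genes, HNRNPA1L2, HNRNPA3, HNRNPAB, HNRNPDL, HNRNPF, HNRNPH1, HNRNPH2, HNRNPH3, HNRNPM, HNRNPR and HNRNPUL1, had log2 ratios from -0.18 to 0.15 with overlapping intervals.

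PTBP1, the polypyrimidine tract binding protein of most cells, was at 77.7 FPKM (73.1 to 85.8) in knockdown cells and 83.4 FPKM (78.4 to 91.9) in control cells. PTBP3 was at 21.4 FPKM (20.1 to 23.6) and 17.3 FPKM (15.9 to 19.5), a log2 ratio of 0.30 with intervals apart. PTBP2, the neuronal relative that PTBP1 holds down in other cells by making them skip its 34-nt exon, was the lowest with 5.24 FPKM (4.93 to 6.37) and 4.08 FPKM (3.57 to 5.43). PTBP2 could not be compared as a whole gene: in the control library its FPKM sat on the complete transcripts PTBP2-203 (3.08 FPKM) and PTBP2-211 (0.992 FPKM), both listed at 0 in the knockdown library. There it sat on assembled pieces of 2 exons in 20357 nt and 4 exons in 17759 nt, lengths that take in long intronic stretches.

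RBFOX2, which binds the sequence UGCAUG and is the RBFOX protein found in most cells outside neurons and muscle as well, lies at chr22:35738736-36028425. It was at 21.4 FPKM (19.9 to 23.6) after RBMS1 knockdown and at 17.7 FPKM (16.5 to 19.8) in control cells, a log2 ratio of 0.26 with intervals that just missed each other, and of 0.69 with reference transcripts alone. MBNL2, a muscleblind protein that binds YGCY motifs, was at 18.7 FPKM (17.0 to 20.5) and 10.3 FPKM (9.07 to 11.8). Its log2 ratio of 0.79 was the second highest of all 42 genes, and the complete annotated forms MBNL2-201 and MBNL2-202 were at 8.99 against 5.62 FPKM and at 2.47 against 0.971 FPKM.

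Its relative MBNL1 was at 31.5 and 29.3 FPKM, CELF1, which acts against MBNL proteins on many exons, at 34.8 and 31.0 FPKM, and QKI, the STAR protein quaking, at 15.2 and 15.6 FPKM. The intervals of these 3 genes overlapped. MBNL1, the more abundant of the muscleblind pair, thus stood within error of its control level while MBNL2 was higher in the knockdown library. The difference between both ratios was not tested.

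The mix of transcripts within each gene was compared next, as the share of each transcript in the FPKM of the gene. At least 1 transcript moved by 20 percentage points or more in 17 of the 42 genes (40.5%), beside 41.1% of the 10882 genes that had FPKM in both libraries, a share near the background. Assembled transcripts were present in 21 of the 42 genes. Of the 17 genes with a moved share, 14 held an assembled transcript, and 3 (SRSF2, HNRNPAB and SRSF5) held none.

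**Figure D3:**
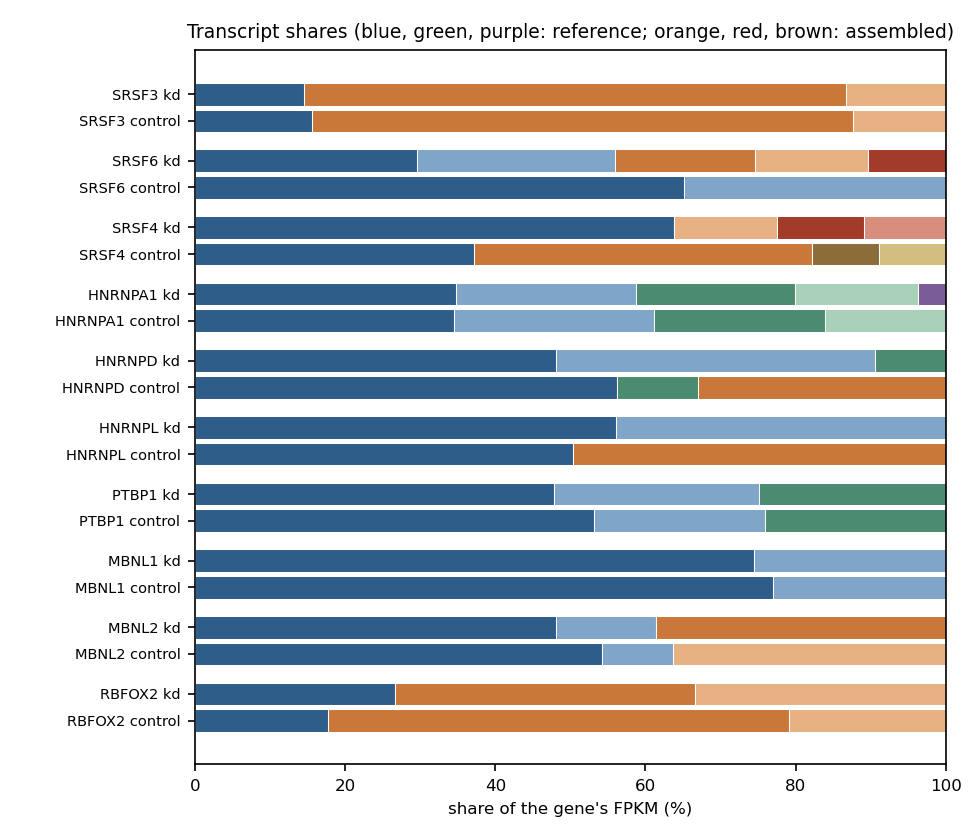
Shares of each transcript in the FPKM of 10 genes, with the knockdown library (kd) above the control library for each gene, reference transcripts in blue, green and purple and assembled ones in orange, red and brown. SRSF3, HNRNPA1, PTBP1 and MBNL1 kept nearly the same mix, and in HNRNPL an assembled form in the control library stands in the place of a reference form in the knockdown library.

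The genes with a mean of at least 5 FPKM and the most displaced shares were HNRNPL, SRSF4, HNRNPF, HNRNPD, MBNL2 and PTBP3. In HNRNPL, the annotated HNRNPL-212 held 43.9% of the FPKM after knockdown and 0% in control cells, where an assembled transcript with the same introns held 49.7%. With transcripts of the same introns summed, no HNRNPL share moved by more than 5.74 points. In HNRNPF, whose alternative first exons lie before the coding exon, one assembled form held 77.2% and 38.9%, while HNRNPF-203 and an assembled transcript of the same introns together held 22.8% and 42.5%.

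The other displaced shares were of several kinds. HNRNPD-208, a fragment of 782 nt, held 42.4% of the HNRNPD signal in the knockdown library and was listed at 0 in the control library. SRSF4-201, the complete SRSF4 form, held 63.8% and 37.2%. In MBNL2 and PTBP3 the moving forms were assembled transcripts present in one library only, whereas MBNL2-201 held 48.1% and 54.3%. PTBP3-205 held 61.7% and 49.2%, and together with an assembled transcript of the same introns 61.7% and 82.3%.

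Other genes kept their mix closely. No share of SRSF3 moved by more than 1.01 points, none of HNRNPA2B1 by more than 0.0934, none of HNRNPC by more than 2.05, none of HNRNPA1 by more than 3.67 and none of PTBP1 by more than 5.30. In all, 15 of the 42 genes had no share change of 5 points or more, and 7 of these had 1 transcript only in both libraries. RBFOX2 lay in between: RBFOX2-205 held 26.7% of its FPKM after knockdown and 17.8% in control cells, and the largest of its assembled transcripts held 40.0% and 61.3%.

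Cassette exons, which a transcript includes or skips whole, were read from the same transcripts. An exon was counted where annotated transcripts include it with both its introns and others skip it with one exact intron, and where including and skipping transcripts summed to at least 1 FPKM in both libraries. There were 98 such exons or exon forms in 33 of the genes. In both libraries 37 were fully skipped and 40 fully included. The other 21 were used in part in at least 1 library or, in PTBP2, fully in 1 library and not at all in the other. Inclusion moved by 20 points or more in 3 of the 98 (3.06%), beside 7.05% of 16698 in all genes. This count leaves out transcripts with another splice site or end beside the exon. A wider count was therefore made as well, over any transcript that covers at least 50% of the exon, an unspliced stretch included, or that spans it with an intron. By the wider count inclusion moved by 20 points or more in 6 of the 98, in PTBP2, SRSF11, HNRNPAB, SRSF2 and TRA2A, beside 7.97% of 16665 in all genes. Overlapping exons of one gene share their transcripts and are not independent.

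By the exact introns, the 3 exons that moved by 20 points lay in PTBP2, SRSF2 and HNRNPD, and each rested on a transcript found in one library only. The 34-nt exon of PTBP2 was included in 100% of the 4.08 FPKM of the control library and in 0% of 1.74 FPKM in the knockdown library, where the skipping form was the assembled piece of 4 exons. The authors' table of transcripts, on a separate FPKM scale, lists PTBP2-211, an including form, at 0.863 FPKM in that library and 1.53 FPKM in the control library, so the 0% holds for the single-library file only. Its counterpart in PTBP1, printed beside it above, was included in 100% in both libraries. The 147-nt exon of HNRNPD, which adds a stretch to the C-terminal part of the protein, was included at 16.4% (15.0 to 18.0) in knockdown cells and 43.8% (40.8 to 46.8) in control cells. With reference transcripts alone the HNRNPD values were 16.4% and 16.2%, because the excess in the control library came from an assembled transcript of 53.1 FPKM. HNRNPD-208, at 88.5 FPKM after knockdown and listed at 0 in control cells, ends inside this exon and is left out of these values. By the wider count, which takes it in, the HNRNPD exon was at 51.9% (49.0 to 54.7) and 43.8% (40.8 to 46.8), so that the direction turned.

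The related exon of HNRNPAB rested on annotated transcripts in both libraries. It was included at 45.5% (42.6 to 48.4) after RBMS1 knockdown and at 57.1% (54.0 to 60.1) in control cells, with bounds apart. HNRNPAB-202, the including form, stood at 48.5 and 53.2 FPKM, and HNRNPAB-201, the skipping form, at 58.2 and 40.1 FPKM. HNRNPAB-206 holds the same exon after another 5′ splice site, so the exact introns leave it out, and it was listed at 0 in knockdown cells and at 25.7 FPKM in control cells. With it the HNRNPAB exon was at 45.5% (42.6 to 48.4) and 66.3% (63.3 to 69.2). Its inclusion was thus lower in the knockdown library by both counts, by 11.6 and 20.9 points.

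Among other partly used exons, the 170-nt exon of PTBP3 was at 100% and 82.3%, and the 50-nt exon of HNRNPH1, outside the coding sequence, at 56.9% and 72.3%. With reference transcripts alone the latter became 56.9% and 55.1% and the former 100% in both libraries. The 40-nt exon of RBFOX2 was included at 73.3% (70.6 to 75.9) after RBMS1 knockdown and at 82.2% (79.8 to 84.5) in control cells. Here the including forms were assembled and the skipping form was RBFOX2-205, at 5.71 and 3.15 FPKM.

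The 78-nt exon of PTBP1, which lengthens the linker between its RNA recognition motifs and whose skipping makes a weaker repressor, was included at 52.2% (49.2 to 55.1) and 46.9% (43.9 to 49.9), with overlapping bounds. The 156-nt exon of HNRNPA1, which gives the longer A1-B form of the glycine-rich tail, was included at 20.9% (19.1 to 22.8) in knockdown cells and 20.9% (19.1 to 22.7) in control cells. The 36-nt exon of HNRNPA2B1, the one that makes the B1 form, was listed at 0 in both libraries beside 338 and 315 FPKM of skipping transcripts. The HNRNPA1 and HNRNPA2B1 values were thus near equal in both libraries, and the PTBP1 value was somewhat higher in the knockdown library within overlapping bounds.

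In MBNL1 the only transcripts above 0 were MBNL1-211, with the 54-nt exon, and MBNL1-204, with the 36-nt exon. The inclusion values of these exons are therefore complements of each other and not separate results. The authors' table, on its separate FPKM scale, lists other forms too, among them MBNL1-205 at 4.97 and 1.82 FPKM. MBNL1-205 is listed at 0 in both single-library files. The 54-nt exon, which holds part of a nuclear localisation signal, was included at 25.5% (23.2 to 27.9) after RBMS1 knockdown and 23.1% (20.8 to 25.4) in control cells. The 36-nt exon was at 74.5% and 76.9%. In MBNL2, despite the sequence identity shown above, the 54-nt exon was listed at 0 in both libraries and the 36-nt exon was at 25.5% (21.3 to 30.1) and 20.5% (15.0 to 27.1), counted against the transcripts that skip it between the same neighbouring exons. MBNL2-201, which joins other exons there, skips the 36-nt exon as well and was in neither count. The skipping transcripts counted for MBNL2 were assembled ones, each present in one library only, and without them the 36-nt exon was at 100% in both. By the wider count, with MBNL2-201, it was at 13.2% and 9.38%.

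Poison exons were examined separately. An exon was taken as one where, among annotated transcripts with its exact introns, an including one is an NMD form and none is protein-coding while a skipping one is protein-coding, or the reverse. Of 25 such exons in these genes, inclusion moved by 20 points or more in 1 (4%), beside 4.68% of 4357 in all genes. By the wider count it was also 1 of 25, beside 5.75% of 4348. Of the 19 poison exons proper, whose inclusion is the NMD form, 14 were at 0 by their exact introns in both libraries, in SRSF3, SRSF4, SRSF7, SRSF9, SRSF11, TRA2A, TRA2B, HNRNPD, HNRNPDL, HNRNPH1, HNRNPL, MBNL2 and QKI. The MBNL2 one is the 54-nt exon shown above, which a protein-coding transcript with other introns holds as its first exon, so that it is a poison exon only between these introns. All 6 exons whose skipping is the NMD form were fully included in both, among them the 34-nt exon of PTBP1 and a 44-nt exon of HNRNPK.

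By its exact introns, the poison exon of SRSF6 was the one above 0 in both libraries. It was included at 37.1% (33.1 to 41.2) in knockdown cells and at 34.9% (31.4 to 38.3) in control cells, within overlapping bounds, through SRSF6-202 at 12.2 and 14.1 FPKM. With reference transcripts alone the SRSF6 values were 47.1% and 34.9%, and by the wider count 45.2% (40.8 to 49.5) and 34.9% (31.4 to 38.3), with bounds apart. SRSF7 had the same poison exon with a different 5′ border in each library. The 449-nt form was at 17.5% in the control library and 0% in the knockdown library, and the 276-nt form at 14.1% after RBMS1 knockdown and 0% in control cells. Both SRSF7 forms were assembled transcripts, of 5.05 and 3.65 FPKM. The NMD form SRSF7-208 runs through the poison exon as part of one long exon, and with it SRSF7 stood at 39.9% (35.3 to 44.8) and 41.6% (36.9 to 46.5). A 195-nt poison exon of SRSF4 was at 13.7% in the knockdown library, through 1 assembled transcript of 2.52 FPKM, and was listed at 0 in the control library. The exon that moved was a 104-nt exon of SRSF2 after the coding sequence (chr17:76735772-76735875), at 0% and at 36.2% (32.6 to 39.8), which is the SRSF2-206 form described above. By the wider count, in which SRSF2-203 covers it unspliced, the SRSF2 exon was at 27.6% and 48.2%.

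Other poison exons were covered in both libraries by transcripts with other borders. By the wider count 10 of the 19 were above 0 in both libraries and 6 were at 0 in both. The 456-nt poison exon of SRSF3 was at 13.3% (11.9 to 14.8) after RBMS1 knockdown and 12.4% (11.1 to 13.9) in control cells, through an assembled transcript that starts upstream of it. The 276-nt poison exon of TRA2B was at 19.4% (17.4 to 21.6) and 20.7% (18.8 to 22.8), through an assembled transcript in each library. The 79-nt poison exon of TRA2A had bounds of 25.7% to 34.4% and of 25.6% to 35.4%. The bounds of SRSF3, SRSF7, TRA2A and TRA2B overlapped between the libraries. They were apart for a 117-nt exon of SRSF11, at 79.2% (76.5 to 81.7) and 71.1% (67.9 to 74.2), and for a 105-nt exon of HNRNPDL, at 13.0% (11.6 to 14.5) and 17.2% (15.6 to 19.0). The SRSF11 value took in SRSF11-201, annotated protein-coding, at 8.83 FPKM after knockdown and listed at 0 in control cells. The neighbouring 109-nt exon of SRSF11, which SRSF11-201 does not cover, was at 72.8% and 71.1%. The including form of HNRNPDL was HNRNPDL-204, also annotated protein-coding. Neither difference thus measures an NMD-annotated form. A 134-nt exon of HNRNPH1 was at 0% after knockdown and at 19.3% (17.7 to 21.1) in control cells, through 1 assembled transcript.

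The share of transcripts annotated as NMD forms, taken over the FPKM of reference transcripts only, had a median of 0% in both libraries, with 6 of 41 genes above 0 in the knockdown and 5 of 41 in the control library, beside 5.1% and 5.08% of all protein-coding genes. Besides SRSF6, these were SRSF7 (33.4% and 33.3%, or 30.1% and 29.1% of all FPKM of the gene), HNRNPA1, QKI, HNRNPUL2-BSCL2 and, in the knockdown library only, HNRNPUL1 (16.2%). HNRNPA1-205 and QKI-204, which held 34.8% and 100% of the FPKM of their genes in the knockdown library, carry the NMD label together with a consensus coding sequence entry. Without such transcripts 4 and 3 genes were above 0. Retained-intron forms were above 0 in 3 of 41 genes in each library, beside 6.67% and 6.73% of all protein-coding genes. Of all FPKM of the gene, they held 23.1% and 16.0% of SRSF5. They held 15.3% of HNRNPH1 and 19.1% of TRA2B in the knockdown library only, and 17.4% of SRSF10 and 29.3% of SRSF2 in the control library only. Of the 538 annotated transcripts of these genes, 459 were listed at exactly 0 in each library, so low use of a poison exon may not have been detectable.

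The genes around these regulators in the splicing pathway were read from 6 lists with 106 genes, of which 92 had a mean of at least 1 FPKM. Their median log2 ratio was -0.01, with 4 genes at least 2-fold lower and 1 at least 2-fold higher, beside 2.8% and 2.96% of all genes. The kinases and import receptors of SR proteins, 10 genes, had a median of -0.02 and 0 genes past 2-fold. PRPF4B, a kinase of the spliceosome, was lowest at 30.4 FPKM in knockdown cells and 43.7 FPKM in control cells, and the kinase gene DYRK1A was highest at 15.1 and 12.4 FPKM.

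Of 17 SR-related genes, 0 passed 2-fold, and the extremes were ARGLU1 (14.8 and 20.2 FPKM) and SREK1 (17.6 and 10.3 FPKM). With reference transcripts alone, the log2 ratio of ARGLU1 turned from -0.43 to 2.09 and that of SREK1 went from 0.72 to 1.21, both past 2-fold. Of the 14 genes of 3′ splice site recognition, 0 passed 2-fold, also with reference transcripts alone, and they ran from SF3A2 (31.4 and 37.1 FPKM) at the low end to SF3B1 (59.2 and 53.3 FPKM) at the high end. Of 10 genes of the U1 particle, which marks the 5′ splice site, 0 passed 2-fold, and the extremes were SNRNP70 (54.0 and 83.9 FPKM) and SNRPE (231 and 164 FPKM). The sign of the log2 ratio turned for PRPF4B, SNRNP70 and SNRPE as well when reference transcripts alone were used.

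Of 15 NMD genes, SMG8, a subunit of the SMG1 kinase complex, was listed at 0 after RBMS1 knockdown and at 6.54 FPKM in control cells, and the highest ratio was that of UPF2 at 9.42 and 7.02 FPKM, which turned to a log2 ratio of -0.10 with reference transcripts alone. Of 26 other splicing regulators, 3 were at least 2-fold lower, beside the same 2.8% of all genes, RBM4 (5.52 and 26.0 FPKM), RBM38 (2.51 and 6.32 FPKM) and KHDRBS3 (1.05 and 3.25 FPKM). RAVER2, a partner of PTB proteins, was listed at 2.94 FPKM in knockdown cells and at 0 in control cells. The intervals of KHDRBS3 overlapped, and the log2 ratio of RBM38 went from -1.06 to -0.73 with reference transcripts alone.

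The authors' table of single transcripts, kept at p-values up to 0.05, gives FPKM on a separate scale and holds 36 transcripts of 18 of these genes. In 16 of them FPKM was lower and in 20 higher in the knockdown library, and in 13 one of the libraries was at 0. Since the table holds only selected transcripts, these counts describe the selection. MBNL2-201 stood there at 20.5 and 12.1 FPKM and MBNL2-202 at 4.26 and 1.94 FPKM. For HNRNPAB, the transcripts HNRNPAB-202 (37.4 and 69.4 FPKM), HNRNPAB-204 (10.7 and 20.8 FPKM) and HNRNPAB-206 (18.2 and 32.2 FPKM) were each lower in the knockdown library, though HNRNPAB-206 is listed at 0 in the file of that library alone. HNRNPD-205 was at 7.71 and 18.6 FPKM. Of the 36 transcripts, 29 were listed at 0 in both single-library files.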

How the data were processed

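RNA of 2 MDA-MB-231 libraries, 1 of RBMS1 knockdown and 1 of control cells, was sequenced by the authors. The submitters' processing notes name Bowtie2 2.0.6, TopHat2 2.0.9, Cufflinks 2.1.1 and Cuffdiff 2.1.1. For each library the authors deposited Cufflinks transcripts with FPKM and confidence bounds, and a table of 7236 transcripts with FPKM, fold changes and p-values of their own comparison, the largest p-value being 0.05. Of that table only the deposited FPKM were used. Per the file headers no read counts are given, so depth is unknown.

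Transcripts were joined to GENCODE release 29 on Ensembl identifiers, and 98.1% of reference transcripts began at its GRCh38 position in both libraries. Assembled transcripts were assigned to the gene with which they shared most introns (at least 1). Ratios used a pseudocount of 1 FPKM and genes with a mean of at least 1 FPKM, in Python 3.11.15. Exon pairs were aligned globally with Biopython 1.88. Ratios, shares and inclusion were tested on simulated data. With 1 library per group no test was made. The genes named were RBMS1, RBFOX2, the 2 most lowered and raised of each family, the 5 most abundant, those with the 6 largest share or inclusion changes, and the extremes of each list, and other members were named to account for each gene. The genes, lists and exons were chosen with earlier results of these data known. Alternatives were other pseudocounts, scalings, filters and transcript sets. One gene of the list of splicing targets is not reported here.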

Additional observations from a re-analysis of the deposited data

How the results depend on the processing

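No paired analysis was possible because each group had 1 library, and no library could be left out. The median log2 ratio of the splicing regulators stayed between 0.02 and 0.10 under every alternative for which it was computed, within the bounds of the values reported. With reference transcripts alone, 1 gene (PTBP2) was at least 2-fold lower and 2 (HNRNPL, TRA2B) at least 2-fold higher, and with the dominant transcript alone 1 (PTBP2) and 2 (HNRNPF, TRA2B), in place of 0 and 0. Reference transcripts alone leave out all PTBP2 signal of the knockdown library, all TRA2B signal of the control library and an assembled HNRNPL form of the control library, and the dominant transcript of HNRNPF is HNRNPF-203, at 16.6 and 0 FPKM. The authors' table, on its separate FPKM scale, lists HNRNPF-203 at 16.2 and 25.1 FPKM, lower in the knockdown library. With no pseudocount, added after seeing the data, 0 genes were at least 2-fold lower and 1 (SRSF8) higher. At the intron with the highest sum of FPKM, an alternative chosen after seeing the data, 1 gene (SRSF8) was at least 2-fold higher, and SRSF2 turned from -0.27 to 0.22 and PTBP2 from 0.30 to -0.17. The RBMS1 log2 ratio of -2.40 became -1.73 with a pseudocount of 5 FPKM. Genes with a transcript share moved by 20 points numbered 8 with reference transcripts alone, against 17, and 11 at 30 points. For reference transcripts alone, the dominant transcript alone, the intron with the highest sum and 30 points, no share over all genes is given. The counts under these settings can therefore not be set against a background. Cassette exons moved by 20 points numbered 1 (SRSF2), against 3, with reference transcripts alone, and 6 over any transcript that covers or spans the exon, an alternative added after seeing the data. A pseudocount of 0.1 FPKM, centring and TPM moved none of 20 genes outside its bounds (the 2 most lowered and raised of each family, the 5 most abundant and RBFOX2, the genes followed one by one), and a pseudocount of 5 FPKM moved SRSF8 to 0.52. Among these 20, the dominant transcript alone turned SRSF11 to -0.14, SRSF2 to 0.20, HNRNPK to -0.16, HNRNPU to 0.19, SRSF4 to 0.31, PTBP2 to -2.03 and QKI to 0.18.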

Other observations

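Exons of 19 genes that are textbook targets of these splicing regulators were read in the same way, a list written with results of these data known. Of them, 9 genes had a cassette exon used in part, 16 exons in all, and inclusion was lower in the knockdown library for 11 and higher for 5. The split by direction over all genes is not given, so this split cannot be set against a background. Exons of one gene can rest on the same transcripts and are not independent. An exon counted as used in part unless it was under 5% or over 95% in both libraries. Inclusion moved by 20 points or more for 6 of the 16 (37.5%), 4 down and 2 up, in MAP4K4, EXOC7, BIN1 and KIF21A, beside 39.8% of the 2963 exons used in part in all genes, a share near the background.

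The 63-nt exon of ENAH (chr1:225504991-225505053), the epithelial exon that ESRP proteins promote, was included at 6.40% (4.75 to 8.53) in the knockdown library and at 25.7% (20.5 to 31.5) in the control library, on 5.87 and 9.08 FPKM. The including forms of ENAH held only 0.375 and 2.33 FPKM of these. ESRP1 and ESRP2 were at or below 0.0264 FPKM in both libraries. The 144-nt exon of NUMB, which RBFOX2 and QKI are known to regulate, was included at 36.7% (32.3 to 41.4) and 51.9% (45.9 to 57.7). The fibronectin exons stood close together: the 270-nt EDA exon of FN1 was at 66.0% (63.3 to 68.6) and 67.5% (64.4 to 70.5). Other exons were higher in the knockdown library with bounds apart. The 192-nt exon of MAP4K4 was at 56.0% (52.8 to 59.2) and 40.9% (37.7 to 44.2), and the 18-nt exon of MACF1 at 64.8% (62.7 to 66.9) and 59.1% (56.8 to 61.5). The 129-nt exon of BIN1 was at 100% and 63.7% (55.5 to 71.6). The 93-nt exon of EXOC7 was at 30.5% (27.7 to 33.4) and 0%. BIN1, EXOC7 and MAP4K4 also held exons that were lower in the knockdown library. The 90-nt exon of BIN1 was at 0% and 38.3%, and the 39-nt exon of EXOC7 at 0% and 35.8%. The 9-nt exon of MAP4K4 was at 0% and 22.2%, and the 21-nt exon of KIF21A at 15.6% and 38.3%. In the exons of BIN1 and EXOC7 and the 9-nt exon of MAP4K4, 1 form was listed at 0 in 1 library. No wider count is given for these exons. Each of these is a value of 1 library per group, and no relation between an exon and a regulator was tested.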
